A study of Mus musculus with 18 samples.

Results

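Acyl-CoA thioesterases cut the thioester bond of acyl-CoAs and release a free fatty acid and coenzyme A, which places them opposite the acyl-CoA synthetases that build this bond. In the liver they sit in the cytosol, the mitochondria and the peroxisomes and help to set how much acyl-CoA is free for oxidation or for lipid synthesis. Type I enzymes share an alpha/beta-hydrolase fold, whereas type II enzymes share a hotdog fold. Here 10 genes of this family were described in mouse liver, 4 of type I (Acot1, Acot2, Acot3, Acot4) and 6 of type II (Acot7, Acot8, Acot9, Acot11, Acot12, Acot13). They were chosen by name among the 15572 genes of the RNA-seq count table, and all 10 had counts and passed the filter on low values.

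Every sample was liver of C57BL/6J mice, and each group held 2 samples. RNA-seq compared refed WT with refed JMJD1C-LKO mice, in which a floxed Jmjd1c allele is deleted by Cre under the albumin promoter, that is, in hepatocytes. JMJD1C is a demethylase of histone H3 lysine 9 (H3K9). ATAC-seq, which marks open chromatin, covered fasted WT, refed WT and refed JMJD1C-LKO livers, and ChIP-seq for dimethylated H3K9 (H3K9me2), a mark known for silent chromatin, covered WT fasted and WT refed livers. Each RNA-seq library was made from pooled RNA, while each ATAC-seq and ChIP-seq sample was a single liver, and all mice had been kept on chow for 6 to 8 weeks, with no age given in the labels. The labels describe all samples as fasted overnight and then given a high-carbohydrate diet for 6 h, while the study's methods give a longer refeeding, so the fasted or refed state was read from the sample titles with the study's reporting summary.

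RNA-seq libraries held 51265128 to 54400509 estimated counts. The targeted gene itself, Jmjd1c, was at 22.0 and 22.8 TMM-normalized CPM (counts scaled to library size) in WT and at 20.0 and 20.5 in JMJD1C-LKO. That is a log2 fold change of -0.14 ± 0.08 (SE), which did not pass edgeR's quasi-likelihood test (adjusted p = 0.233). The deleted exons are not given in the sources used here, so counts over the whole gene cannot check the deletion, and directions below refer to the libraries labelled JMJD1C-LKO. All 6 Kupffer cell markers were higher in those libraries, with summed levels of 194 and 198 CPM in WT against 380 and 546 in JMJD1C-LKO, and 5 of 6 endothelial markers were higher, with sums of 96.9 and 97.9 against 131 and 173. Of the other lists, 2 of 6 hepatocyte, 1 of 6 stellate cell, 1 of 6 lymphocyte, 0 of 5 cholangiocyte, 1 of 5 erythroid and 1 of 2 tested pancreas acinar markers were higher and none was lower. Over all genes tested, 14.6% were called higher and 13.4% lower. The log2 fold changes of all 6 lymphocyte markers were above 0, with low sums of 4.03 and 4.18 CPM in WT against 6.68 and 8.55 in JMJD1C-LKO. No marker with counts in the table was at 0 in any library. In bulk liver, more cells of a type and more RNA per cell cannot be told apart, nor can fewer cells and less RNA per cell. The part of other cells in the results below was not tested.

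Acot1 to Acot4 lie on chromosome 12 in a cluster with Acot5 and Acot6 that spans 121.923 kb (chr12:83987861-84109783, GRCm38, plus strand), in the order Acot2, Acot1, Acot4, Acot3, Acot5, Acot6. The genes are close copies. The coding sequences of Acot1 and Acot2 were identical at 95.2% of 1239 aligned bases, with a longest identical run of 273 bases, whereas Acot1 and Acot3 were identical at 83.9%, Acot3 and Acot5 at 85.4%, and Acot1 and Acot4 at 72.8%. This matters for the counts, since a read from an identical run cannot be given to 1 gene. The stretch of 90 coding bases where Acot1 to Acot4 differ at the most positions, 70, is shown to make this visible, with the differing positions in capitals (RefSeq, GRCm38, plus strand, each within 1 coding exon).
Acot1 (chr12:84016890-84016979): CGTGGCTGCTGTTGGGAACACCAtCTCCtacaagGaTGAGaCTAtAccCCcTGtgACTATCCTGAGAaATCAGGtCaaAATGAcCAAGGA
Acot2 (chr12:83992612-83992701): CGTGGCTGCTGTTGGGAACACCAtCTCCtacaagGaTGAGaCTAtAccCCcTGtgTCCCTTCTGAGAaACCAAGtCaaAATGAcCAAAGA
Acot3 (chr12:84058531-84058620): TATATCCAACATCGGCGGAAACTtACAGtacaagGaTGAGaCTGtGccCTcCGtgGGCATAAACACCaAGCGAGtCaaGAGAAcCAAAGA
Acot4 (chr12:84043301-84043390): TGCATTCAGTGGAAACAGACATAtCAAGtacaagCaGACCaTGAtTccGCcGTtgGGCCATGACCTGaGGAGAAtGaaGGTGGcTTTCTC
Even there, Acot2 differed from Acot1 at 7 of 90 positions, while Acot3 differed at 40 and Acot4 at 60.

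Over whole transcripts, 47.3% of the 50-base windows of Acot1 were also found in transcripts of another gene, most of them in Acot2 (34.9% of the windows). The share was 27.7% for Acot2, 12.1% for Acot4 and 9.85% and 10.2% for the transcripts of Acot3. Acot9, a mitochondrial thioesterase on chromosome X, shared 19.5% and 20.2% of its windows with its intronless copy Acot10. The transcripts of Acot7, Acot8, Acot11, Acot12 and Acot13 shared none. Transcripts were compared on their own strand only, so overlap with a gene on the other strand is not covered. The authors' estimated counts for Acot1 to Acot4 are therefore uncertain in how reads were divided among them, and those of Acot8 and Acot13 were whole numbers in every library. The counts of Acot12 held fractions in every library although it has 1 RefSeq transcript. With what its reads were divided was not tested.

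**Figure D1:**
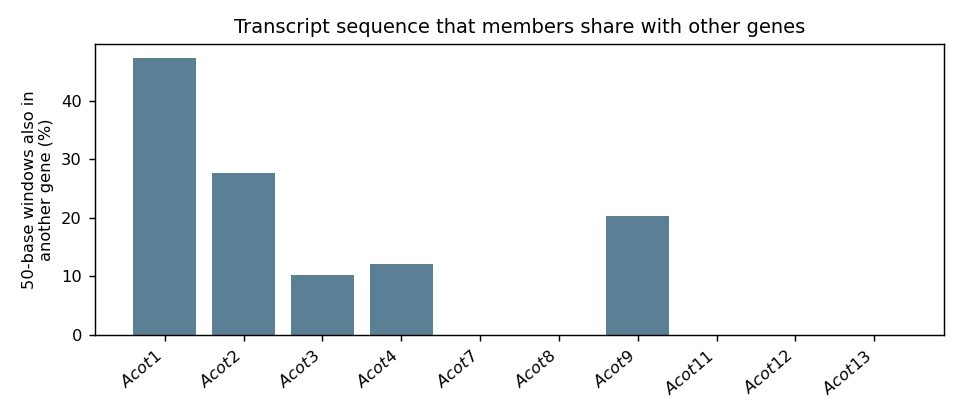
Share of the 50-base windows of each member's transcript that also occur in a RefSeq transcript of another gene (vertical axis, percent; the transcript with the larger share where a gene has more than 1 in the count table). Acot1 stands highest at 47.3% and Acot2 follows at 27.7%, while 5 type II members are at 0.

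Levels between genes were compared as TPM, which divides counts by transcript length and scales each library to the same total. In refed WT liver, Acot13, a small thioesterase of mitochondria and cytosol also known as Them2, was highest, with 180 and 173 TPM. Acot1, the cytosolic type I enzyme, followed with 75.3 and 97.8 TPM, then Acot12, a cytosolic acetyl-CoA hydrolase, with 60.1 and 64.8 TPM. The peroxisomal enzymes came next, Acot3 with 52.2 and 60.8 TPM, Acot4 with 39.7 and 40.2 TPM, and Acot8 with 37.9 and 37.5 TPM. Acot12 and Acot3 overlapped between libraries, and no other neighbours in this order did. Acot7, a cytosolic enzyme best known from brain, had 22.9 and 24.1 TPM, and the mitochondrial Acot2 had 22.3 and 21.5 TPM. At the low end were Acot9 with 1.95 and 1.91 TPM and Acot11, the enzyme also known as Them1, with 1.06 and 1.01 TPM. In JMJD1C-LKO liver Acot13 was still highest, with 136 and 141 TPM, and Acot1, at 66.5 and 121 TPM, overlapped Acot12, at 75.4 and 87.4 TPM.

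**Figure D2:**
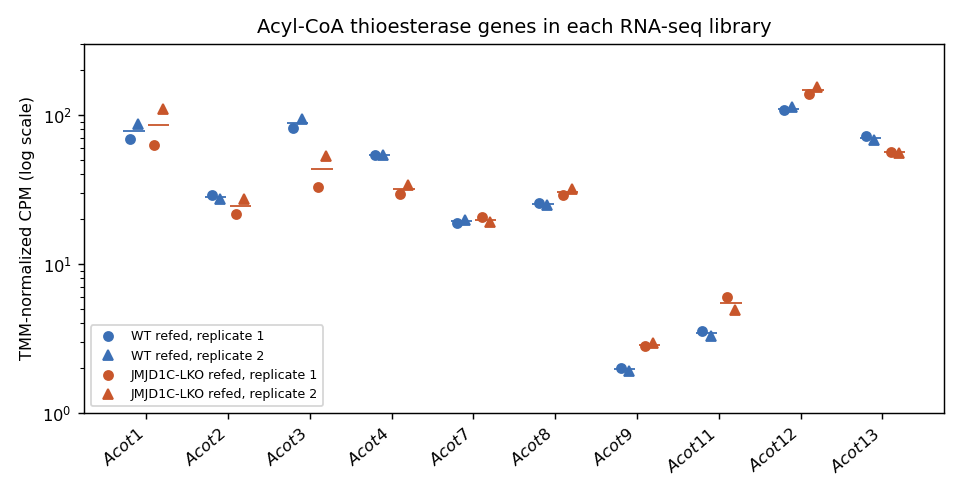
Level of each member in each of the 4 RNA-seq libraries (TMM-normalized CPM, log scale; circles are replicate 1, triangles replicate 2, lines the mean of 2). Acot3, Acot4 and Acot13 lie lower and Acot8, Acot9, Acot11 and Acot12 higher in both JMJD1C-LKO libraries, and the JMJD1C-LKO replicates of Acot1 lie 1.74-fold apart.

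Compared with refed WT, 3 members were higher in refed JMJD1C-LKO liver (Acot8, Acot11, Acot12) and 3 were lower (Acot3, Acot4, Acot13), by edgeR's quasi-likelihood test at an adjusted p under 0.05. The other 4 did not pass. By type, 2 of 4 type I members were lower and none was higher, and 3 of 6 type II members were higher and 1 was lower. Over all 14151 genes tested, 14.6% were called higher and 13.4% lower, that is, 2066 and 1892 genes. Among called genes 52.2% were higher, and 65.4% with upper quartile factors, which moved no member's call. The median log2 fold change was 0.086 over the members and 0.0061 over all genes. The groups did not overlap for 7 of 10 members, against 67.5% of all genes tested. The count of called members fell to 2, Acot3 and Acot4, when either WT library was left out. In each fit with a library left out, the spread came from the other group's 2 libraries alone and the lone library was assumed to vary like them.

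Acot3 and Acot4, both peroxisomal, were the most reduced of the 10 members. Acot3, which hydrolyses long-chain acyl-CoAs, was at 82.3 and 93.6 CPM in WT and at 33.1 and 53.3 CPM in JMJD1C-LKO. Both JMJD1C-LKO libraries were below both WT libraries, a 2.03-fold decrease (log2 fold change -1.02 ± 0.18 SE, adjusted p = 0.00316 by edgeR). The replicates were 1.61-fold apart in JMJD1C-LKO, and the log2 fold change was -0.73 without JMJD1C-LKO replicate 1 and -1.41 without replicate 2, with the spread taken from the WT libraries in both cases. Acot4, which acts on succinyl-CoA and other dicarboxylic acyl-CoAs, was at 54.2 and 53.7 CPM in WT and at 29.7 and 33.7 CPM in JMJD1C-LKO. Its replicates lay close together and it fell 1.70-fold (log2 fold change -0.77 ± 0.09 SE, adjusted p = 0.000402 by edgeR). Acot4 was also the only member whose transcript passed when the 22296 transcripts were fitted in place of genes (adjusted p = 0.0324 by edgeR).

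The other cluster members did not pass. Acot1 was at 69.0 and 87.7 CPM in WT and at 62.8 and 109 CPM in JMJD1C-LKO. The WT values lay between those of JMJD1C-LKO, and the log2 fold change was 0.13 ± 0.21 (SE, adjusted p = 0.671 by edgeR). Here the sign depended on which library was left out. Without JMJD1C-LKO replicate 1 the log2 fold change of Acot1 was 0.47 (adjusted p = 0.00992 by edgeR, with the spread of the WT libraries alone), whereas without JMJD1C-LKO replicate 2 it was -0.32 (adjusted p = 0.0903, likewise), and without WT replicate 1 it was -0.032. Acot2, the mitochondrial copy, was at 28.9 and 27.1 CPM in WT and at 21.7 and 27.4 CPM in JMJD1C-LKO. The groups overlapped (log2 fold change -0.19 ± 0.11 SE, adjusted p = 0.237 by edgeR), and without JMJD1C-LKO replicate 2 it was at -0.37 (adjusted p = 0.0198, with the spread of the WT libraries alone).

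With the reads of the 5 cluster genes in the count table added up, so that their division among these 5 no longer mattered, Acot1, Acot2, Acot3, Acot4 and Acot6 together had 235 and 263 CPM in WT and 148 and 224 CPM in JMJD1C-LKO. Both JMJD1C-LKO libraries were below both WT libraries, but the sum did not pass (log2 fold change -0.42 ± 0.16 SE, adjusted p = 0.0769 by edgeR). Acot6 was low, at 0.73 and 0.77 CPM in WT and 0.49 and 0.38 CPM in JMJD1C-LKO, and did not pass (log2 fold change -0.79 ± 0.37 SE, adjusted p = 0.144 by edgeR). Acot5 has no row in the count table used here, so its reads are not in the sum, although 13.4% of the windows of Acot1 are also in Acot5.

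Among type II members, Acot12 was at 108 and 114 CPM in WT and at 139 and 154 CPM in JMJD1C-LKO. Both JMJD1C-LKO libraries were above both WT libraries, and Acot12 rose 1.33-fold (log2 fold change 0.41 ± 0.08 SE, adjusted p = 0.00719 by edgeR). Acot8, the broad-specificity peroxisomal thioesterase, was at 25.6 and 24.8 CPM in WT and at 29.0 and 31.8 CPM in JMJD1C-LKO. This was the weakest of the calls (log2 fold change 0.27 ± 0.09 SE, adjusted p = 0.0427 by edgeR), and it was lost with DESeq2 (adjusted p = 0.099), without the filter on low counts (adjusted p = 0.0504) and without JMJD1C-LKO replicate 2 (adjusted p = 0.141). Acot13 was at 72.5 and 68.1 CPM in WT and at 56.5 and 55.8 CPM in JMJD1C-LKO, and it fell 1.25-fold (log2 fold change -0.32 ± 0.08 SE, adjusted p = 0.0134 by edgeR). The JMJD1C-LKO replicates of Acot13 were the closest of any called member.

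Acot11 was low in all libraries, at 3.53 and 3.30 CPM in WT and 5.99 and 4.88 CPM in JMJD1C-LKO. It rose 1.59-fold (log2 fold change 0.67 ± 0.18 SE, adjusted p = 0.02 by edgeR), on 183 and 172 counts in WT against 296 and 269 in JMJD1C-LKO. Acot9 was lower still, at 2.01 and 1.92 CPM in WT and 2.79 and 2.94 CPM in JMJD1C-LKO. Its groups did not overlap, yet it did not pass (log2 fold change 0.55 ± 0.21 SE, adjusted p = 0.0752 by edgeR), nor did it when summed with Acot10 (adjusted p = 0.115). Acot7 was nearly level, at 19.0 and 19.6 CPM in WT and 20.6 and 19.1 CPM in JMJD1C-LKO (log2 fold change 0.038 ± 0.090 SE, adjusted p = 0.786 by edgeR).

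**Figure D3:**
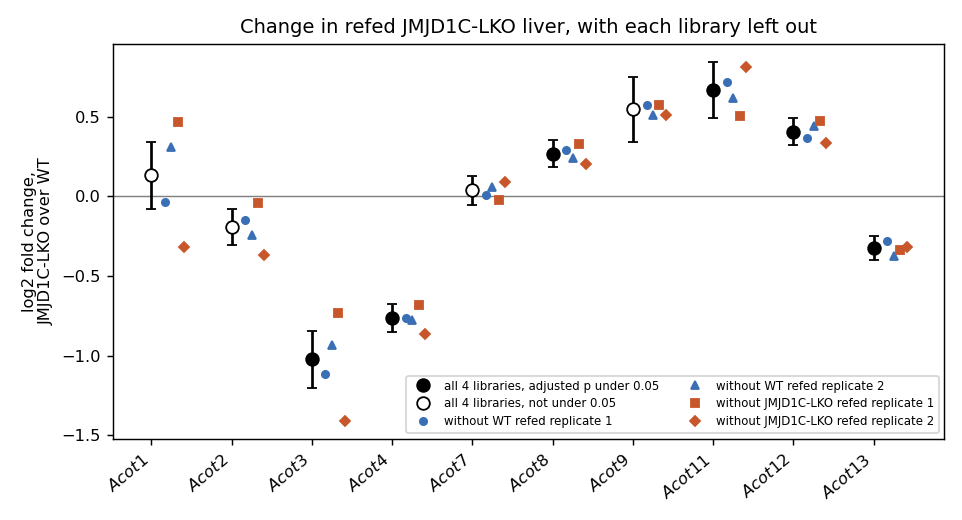
Log2 fold change of each member in JMJD1C-LKO over WT (black, with SE; filled where the adjusted p was under 0.05) and the same with each library left out (coloured marks). Acot2, Acot3, Acot4 and Acot13 stay below 0 in every case, and Acot8, Acot9, Acot11 and Acot12 stay above 0. Acot1 runs from -0.32 to 0.47, and Acot7 also crosses 0.

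The transcripts of Acot7 start at different first exons on chromosome 4. NM_133348, which starts farthest upstream, held 37.3% and 40.5% of the estimated counts of Acot7 in WT and 53.0% and 59.6% in JMJD1C-LKO. NM_001146058, which starts inside the gene, held 62.1% and 59.0% in WT and 46.6% and 40.1% in JMJD1C-LKO. No share of transcripts that do not overlap between the groups was computed over all genes. Fitted as transcripts, NM_133348 had a log2 fold change of 0.57 ± 0.14 (SE, adjusted p = 0.0868 by edgeR) and NM_001146058 of -0.44 ± 0.16 (SE, adjusted p = 0.171), so neither passed. Acot11 also has 2 starts. NM_001347159 held 45.5% and 19.4% of its counts in WT and 58.6% and 72.4% in JMJD1C-LKO, and NM_025590 the rest. The WT libraries were far apart, and neither transcript passed (adjusted p = 0.112 and 0.736 by edgeR). These shares come from the authors' division of reads between transcripts that share most exons, with no count of the reads that tell them apart.

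**Figure D4:**
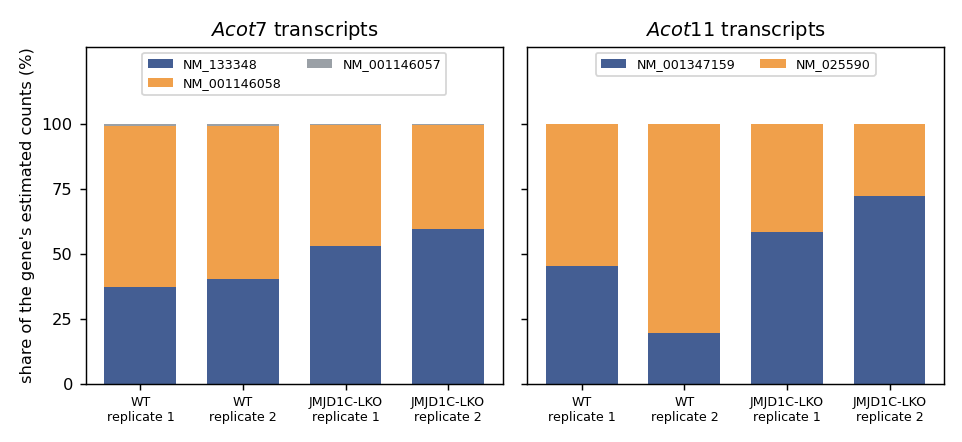
Share of the estimated counts of Acot7 and Acot11 given to each RefSeq transcript in each RNA-seq library (stacked bars, percent). The upstream transcript of Acot7, NM_133348, is at 37.3% and 40.5% in WT and at 53.0% and 59.6% in JMJD1C-LKO.

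The genes whose pattern over the 4 libraries was closest to that of Acot1 were Acacb, Txnip, Peg3, Slc12a9 and Igfbp3. The measure was the Euclidean distance of centred log2 CPM over 4 libraries among 4851 genes of a similar level, and it ran from 0.16 to 0.37. Acacb, the acetyl-CoA carboxylase of the mitochondrial surface, was at 22.6 and 31.8 CPM in WT and 22.9 and 35.1 CPM in JMJD1C-LKO. As in Acot1, replicate 2 was above replicate 1 in both groups.

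Genes that act beside the thioesterases were counted in 7 lists. Of 108 tested, 28 were higher and 13 lower, against 14.6% and 13.4% of all genes. Among the other thioesterases, 2 of 11 were higher, the lysosomal Ppt1 (log2 fold change 0.40 ± 0.09 SE) and Lyplal1 (0.47 ± 0.11 SE), and none was lower. Among acyl-CoA synthetases, 5 of 19 were higher and 1 lower. The bile acid and fatty acid ligase Slc27a5 rose from 765 and 784 CPM to 1078 and 1073 CPM, Slc27a3, Acss2 and Slc27a1 were also higher (1.36, 0.32 and 0.53 on the log2 scale), and Acsm5 was lower (-0.47). Of 7 acyl-CoA binding genes, Fabp1 and Acbd5 were lower, at -0.40 and -0.48 on the log2 scale, and none was higher. Pank1, a kinase of coenzyme A synthesis, was the 1 gene of 10 in its list that passed, at 0.36.

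In mitochondrial beta-oxidation 6 of 21 genes were higher and 1 lower. Cpt1a, the carnitine palmitoyltransferase that admits fatty acids to mitochondria, rose from 366 and 355 CPM to 519 and 557 CPM, and Acad10 and Acad11 were higher (0.70 and 0.35 on the log2 scale). Cpt1b rose from 3.55 and 3.26 CPM to 5.18 and 8.44 CPM, and Acadl was lower (-0.30). In peroxisomal beta-oxidation, where Acot3, Acot4 and Acot8 act, 4 of 18 were higher and 5 lower. Acox3, a peroxisomal acyl-CoA oxidase, was higher (0.50 on the log2 scale). Abcd2 and Ehhadh were lower (-0.70 and -0.53). Of 22 fasting targets of PPAR-alpha, the nuclear receptor known to induce Acot1 to Acot4, 10 were higher and 4 lower, with the hormone Fgf21 falling from 30.3 and 27.2 CPM to 5.04 and 5.50 CPM. Ppargc1a, Cidec and Pdk4 were higher (1.72, 1.51 and 3.03 on the log2 scale) and Retsat was lower (-0.73). Members and targets thus moved in both directions.

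The H3K9me2 and ATAC-seq files list the summit of each peak with the -log10 of its q-value, called here the score. Scores grow with depth, which is unknown from these files, so they were ranked only within a library. A gene was counted as marked where a summit lay within 1000 bp of a RefSeq start. Numbers of summits differed widely between replicates. H3K9me2 gave 7690 and 13456 summits in WT fasted and 1297 and 9929 in WT refed livers, and ATAC-seq 5220 and 7632 in WT fasted, 5027 and 3119 in refed WT, and 1450 and 825 in refed JMJD1C-LKO livers. With 2 samples a group and no counts, no difference between conditions was tested.

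In WT fasted liver, H3K9me2 summits stood at the starts of 6 and 7 of the 10 members in the 2 replicates, against 29.3% and 42.7% of 26180 annotated genes. In WT refed liver they stood at 1 and 7 members, against 0.233% and 35.1% of genes. In both replicates together these were 6 members in fasted and 1 in refed liver, against 29.1% and 0.042% of genes. The low refed count rests on replicate 1, in which 61 genes in all had a summit at a start. WT fasted replicate 2 and WT refed replicate 2 marked the same 7 members, Acot1, Acot2, Acot4, Acot7, Acot8, Acot12 and Acot13. Acot3 had no summit within 1000 bp, but had one at 1813 and 1566 bp downstream in the fasted replicates and none in refed liver. Acot9 and Acot11 had none in any library.

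The share of genes with such a summit went with expression in refed WT liver, the only WT state with RNA-seq, so fasted summits are set against refed levels. In WT fasted replicate 1 it was 10.8% in the lowest quartile of TPM and 80.8% in the highest, in WT fasted replicate 2 it was 31.1% and 95.2%, and in WT refed replicate 2 it was 16.1% and 89.2%. Of the 7 members in the highest quartile, 5 and 6 were marked in the fasted replicates and 6 in refed replicate 2. Acot2, in the third quartile, was marked in these 3 libraries, and Acot9 and Acot11, in the lower quartiles, were not. The members' share is thus to be read beside their level.

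The H3K9me2 summits of members lay just inside the gene. At Acot1 they were 251 and 261 bp downstream of the start in the fasted replicates and 130 and 303 bp in the refed. The score of Acot1 ranked 4137 of 7690 and 7966 of 13456 in fasted, and 355 of 1297 and 8720 of 9929 in refed liver. Acot1 was thus the 1 member with a summit at its start in all 4 libraries. Acot5, farther along the cluster, had summits 287, 362 and 282 bp downstream in both fasted replicates and refed replicate 1, but none in refed replicate 2. Acot2 (262 to 327 bp), Acot4 (272 to 324 bp), Acot8 (235 to 451 bp) and Acot12 (199 to 272 bp) were similar. A further summit lay 538 bp upstream of Acot8 in WT fasted replicate 2. It was also 305 bp downstream of the start of Zswim3, which starts in the other direction. That summit cannot be given to 1 of the genes. The summits of Acot12 also lay 79 to 152 bp downstream of the start of 4833422C13Rik, a transcript that starts nearby in the other direction. They therefore cannot be given to 1 of the genes. Over all genes the median distance was 267 and 226 bp in fasted and 267 bp in refed replicate 2, so the members lay where summits of other genes lay.

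Other members departed from this place. At Acot7 the summits lay upstream of the start of NM_133348, by 217 bp in WT fasted replicate 2 and 164 bp in WT refed replicate 2. At Acot13 summits flanked the start, with 1 set 200 to 253 bp downstream and another 393 to 523 bp upstream, in WT fasted replicates 1 and 2 and WT refed replicate 2. The upstream set lay 223 to 353 bp inside Tdp2, a DNA repair gene that starts nearby in the other direction. Within 1000 bp of their starts, the 50-base windows of Acot1, Acot2 and Acot4 were unique in the genome for 86.8%, 92.7% and 83.8%, against 98.6% or more for the other members. Reads from the copied windows could not be placed in 1 gene.

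**Figure D5:**
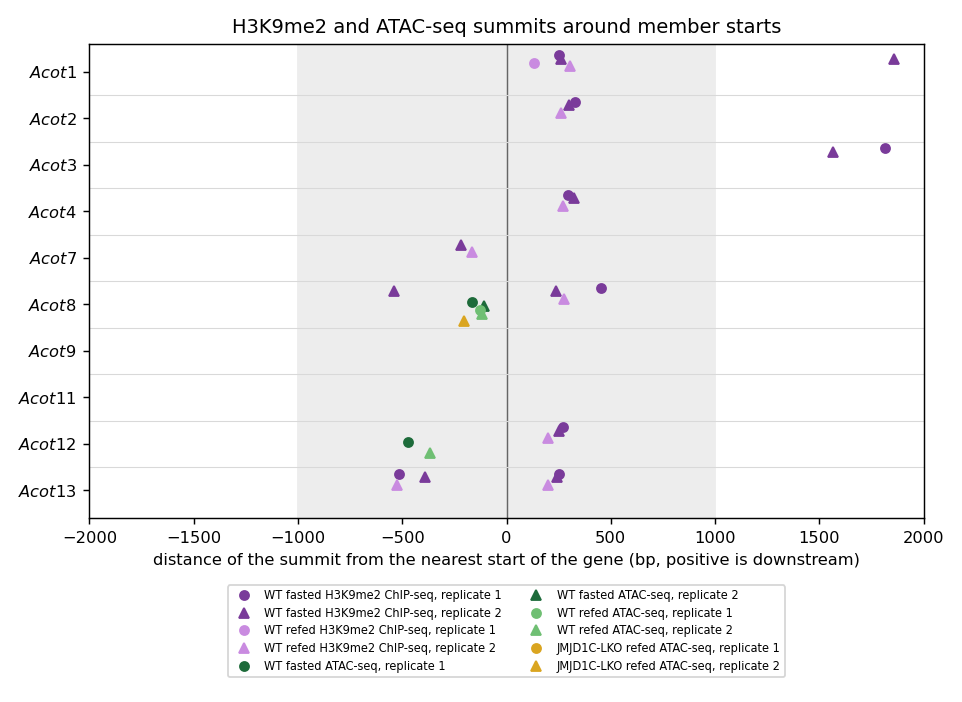
Summits within 2000 bp of a member's start (horizontal axis, bp from the nearest start of the gene, positive downstream; purple is H3K9me2, green and yellow are ATAC-seq, circles replicate 1 and triangles replicate 2; the shaded band is 1000 bp to either side). H3K9me2 summits of Acot1, Acot2, Acot4, Acot8, Acot12 and Acot13 gather 130 to 451 bp downstream, and ATAC-seq summits appear only upstream of Acot8 and Acot12.

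ATAC-seq gave summits at the starts of few members. They numbered 2 and 1 in fasted WT livers, 1 and 2 in refed WT livers, and 0 and 1 in refed JMJD1C-LKO livers. Over all genes the shares were 12.0% and 5.49%, 9.94% and 6.24%, and 4.06% and 0.886%. In both replicates together they were 4.36%, 4.78% and 0.397% of genes, against 1, 1 and 0 members. No ATAC-seq summit stood at the start of Acot1 in any library, the nearest being 48611 bp away in WT refed replicate 1. Acot1 thus had a high RNA level with no listed summit at its start. The same held for Acot13, whose nearest summit was 30456 to 30579 bp away in 5 of 6 libraries. Acot3, Acot4 and Acot7, also in the highest quartile of TPM in refed WT liver, had none at their starts either. Most genes of that quartile had none. The share with one was 22.97% and 11.19% in fasted WT livers and 18.16% and 12.96% in refed WT livers. In refed JMJD1C-LKO livers it was 7.02% and 1.68%.

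Acot8 was the member with ATAC-seq summits at its start in the most libraries. They lay 110 to 166 bp upstream in all 4 WT libraries and 205 bp upstream in JMJD1C-LKO refed replicate 2, and JMJD1C-LKO refed replicate 1 had none. Its scores ranked 691 of 5220 and 1216 of 7632 in fasted WT, 3035 of 5027 and 278 of 3119 in refed WT, and 802 of 825 in JMJD1C-LKO replicate 2. The same summits lay upstream of Zswim3, which starts in the other direction, by 28 bp in JMJD1C-LKO refed replicate 2 and 67 bp in WT fasted replicate 1, so they cannot be given to 1 of the genes. Acot12 had a summit 474 bp upstream in WT fasted replicate 1 and 367 bp upstream in WT refed replicate 2, near the transcript 4833422C13Rik. A further summit lay 24127 to 24287 bp downstream of its start, within the gene, in WT fasted replicate 1 and both WT refed replicates, but in none of the JMJD1C-LKO libraries, which list the fewest summits.

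The promoter of Acot8 is shown because it holds these ATAC-seq summits, and that of Acot4 because Acot4 had the smallest adjusted p of the members and its promoter holds an E-box, the CACGTG element that USF-1, the factor studied with JMJD1C, is known to bind (RefSeq, GRCm38, 250 bases before the start, 5′ to 3′ on the gene's strand, with CCAAT boxes on either strand and the E-box in capitals).
Acot8 (chr2:164804882-164805131, minus strand): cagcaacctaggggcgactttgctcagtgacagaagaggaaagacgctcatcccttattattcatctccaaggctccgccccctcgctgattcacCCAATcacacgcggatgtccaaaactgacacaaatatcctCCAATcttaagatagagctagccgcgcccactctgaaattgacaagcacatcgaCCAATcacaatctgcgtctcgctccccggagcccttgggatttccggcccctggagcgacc
Acot4 (chr12:84038129-84038378, plus strand): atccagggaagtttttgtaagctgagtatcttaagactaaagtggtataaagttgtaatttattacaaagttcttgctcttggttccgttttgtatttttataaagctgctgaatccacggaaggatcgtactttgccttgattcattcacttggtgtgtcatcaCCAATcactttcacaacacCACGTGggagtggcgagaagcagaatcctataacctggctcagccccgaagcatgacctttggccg
In Acot8 the CCAAT boxes began 155, 115 and 61 bases before the start. In Acot4 the CCAAT box began 85 and the E-box 66 bases before the start. Promoters of 300 bases (250 before to 50 after a start) were matched for 9 of 10 members, 11 promoters in all, and none was matched for Acot13. The 1 promoter matched for Acot7 has its start at chr4:152185608, where none of its transcripts with counts starts. The promoters of NM_133348 and NM_001146058 were therefore not searched. CACGTG was in 2 of 11, those of Acot4 and of 1 start of Acot11, and in 7.15% of all 32851 promoters. These 2 genes went in opposite directions in JMJD1C-LKO liver (log2 fold changes -0.77 for Acot4 and 0.67 for Acot11). NM_025590, the Acot11 transcript at the start with the E-box, did not pass. A part of the E-box in these changes was not tested. CCAAT, read on both strands, was in 8 of 11, that is, in 7 of 9 members, since the 2 starts of Acot3 share their boxes, and in 37.4% of all promoters. The direct repeat AGGNCANAGGNCA, the element of PPAR-alpha, was in 0 of 11 and in 0.381% of all, and the sterol element TCACNCCAC was in 0 of 11 and in 1.24%. These are matches of letters in this window and say nothing of binding.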

How the data were processed

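The members, lists and comparisons were chosen with earlier results of these data known. The RNA-seq table deposited by the authors holds unscaled estimated counts of RefSeq transcripts (mm10). The submitters' processing notes name HISAT2 and Partek, and the counting method is not given in the sources used here. Of the values, 65.7% to 66.0% hold a fraction, since reads were divided among transcripts. For ATAC-seq and ChIP-seq the authors deposited MACS2 summits, called per sample, each with its −log10 q-value as the score. BWA is named for ATAC-seq and in the notes, and Bowtie2 in the methods for ChIP-seq against the input. A second table of the authors' own p-values, FDR and fold changes was not used.

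Counts were summed per gene and rounded. Genes kept by filterByExpr (14151) were tested with edgeR 4.0.16 (R 4.3.3) by the quasi-likelihood F test with TMM factors and no block, with Benjamini-Hochberg adjustment over all of them and an adjusted p under 0.05 as the threshold. SE is the log2 fold change over the root of F. Nothing states separate animals per pool, so p-values measure the spread between these libraries. TPM used 24682 of 24994 transcripts matched to RefSeq GRCm38.p6 by identifier. The study's reporting summary gives an approximate depth under ChIP-seq, but the depth of each peak sample is unknown, and no interval was given. In simulated counts for this comparison over 14151 genes, edgeR recovered 72% of 100 genes changed by 1 and 87% of 100 changed by 2 on the log2 scale. Of 170 genes called there, 11 were false. No change below 1 was simulated, while all called members but Acot3 changed by less than 1, so recovery at their sizes is not known. Coding sequences were aligned with MAFFT 7.526. Alternatives were DESeq2 1.42.0, other factors, no filter, transcripts or summed copies, a block, other windows and score thresholds, and each library left out. All 10 members were named, with Jmjd1c, up to 5 called genes per list by smallest p (some of which are not reported here) and the 5 genes closest to Acot1. Genes described as highest or closest, and the stretch of sequence shown, were chosen after their values were seen.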

Additional observations from a re-analysis of the deposited data

How the results depend on the processing

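The direction of the 6 called members held under every alternative fitted per gene. The number of called members was 6 in the main fit and ranged from 2 to 7 with a library left out, and that of pathway genes was 41 and ranged from 13 to 50. With a library left out, the spread came from the other group alone. Over all genes 1265 and 1068 were called without WT replicate 1 or 2, against 3958 with all libraries and 5180 and 3077 without JMJD1C-LKO replicate 1 or 2. At an adjusted p under 0.01, 3 members and 21 pathway genes were called. The share of all genes called at this threshold was not computed, so these counts cannot be set against it. Log2 fold changes that turned sign were those of Acot1 (from -0.32 to 0.47 with a library left out, below 0 without WT replicate 1 or JMJD1C-LKO replicate 2, and -0.42 with the cluster summed), Acot7 (from -0.025 without JMJD1C-LKO replicate 1 to 0.093 without replicate 2, and -0.44 for NM_001146058) and Acot11 (-0.26 for NM_025590), and of these genes only Acot11 was called. The cause was not tested. Replicate numbers did not pair the libraries (correlation of deviations -0.0046), and with the replicate block 6 members and 41 pathway genes were called, and 4207 genes in all.

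Counts of members with a summit in both replicates moved with the rule. Among the strongest summits, as many as in the shortest list (825 for ATAC-seq, 1297 for H3K9me2), 0 members had one in every group. With a score of at least 5, WT refed ATAC-seq fell from 1 to 0, and with summits anywhere in the gene it rose to 2. Shares of all genes were not computed under these rules, so such counts say nothing particular about the members. With 1 replicate left out, ATAC-seq gave 1 to 2 members in WT fasted, 1 to 2 in WT refed and 0 to 1 in JMJD1C-LKO refed livers, and H3K9me2 6 to 7 in WT fasted and 1 to 7 in WT refed livers. Counts from 2 single livers a group, and lists of such unequal length, limit these comparisons.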
